A study of Mus musculus with 10 samples.

Results

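In SW1 melanomas, the C-type lectin receptor genes Clec4a1, Clec4a3, Clec4b1 and Clec12a were higher in macrophages than in neutrophils, whereas Clec4d and Clec4e were 10.1-fold and 12.4-fold higher in neutrophils. The neutrophil sums of the first 4 genes held between 3 and 26 UMIs, and Clec12a no longer passed the test's cut without the 2 smallest neutrophil sums. The set examined holds 9 of the 32285 genes of the count matrices, which were chosen by name. These are Clec4a1, Clec4a2, Clec4a3, Clec4b1, Clec4d, Clec4e and Clec4n, which lie in 1 cluster of the genome, and Clec5a and Clec12a, which lie elsewhere on the same chromosome. All 9 had UMIs in every library.

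C-type lectin receptors are membrane proteins of myeloid cells that bind sugars, lipids or crystals on microbes and damaged cells. Some pair with the adaptors FcRγ (gene Fcer1g) or DAP12 (gene Tyrobp), which recruit the kinase Syk and, through Card9, Bcl10 and Malt1, switch on cytokine genes. Others carry an inhibitory motif in their own tail that recruits the phosphatases encoded by Ptpn6 and Ptpn11. Several receptors of the wider family bind fucose or mannose, and the tumors came from mice that did or did not drink L-fucose (L-fuc).

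The tumors came from SW1, a melanoma line of the mouse, grown in female C3H/HeJ mice, an inbred strain with a loss-of-function allele of Tlr4, aged 4 to 6 weeks. The tumors of each arm were pooled into 1 droplet library (10x Genomics). Unique molecular identifiers (UMIs), tags put on each RNA before amplification, were counted, and levels are UMIs per 1000000 UMIs of a population in a library (CPM). There were 5 gene expression libraries: pretreatment tumors at day 0, and tumors at day 7 and at day 21 of mice given either control water or water with 100 mM L-fuc. Values are listed in order of the day, with each L-fuc library after the control library of its day. The labels give 10 days of tumor growth before treatment, 3 mice at pretreatment and 5 or, in another field, 6 mice per arm, and a second field gives the L-fuc dose in nM. With 1 library per condition there was no replicate of any condition, so conditions were compared as values with 95% intervals that cover counting error only, with no test. The 5 libraries serve as replicates only where cell populations were compared within them, and the p-values of those contrasts measure the spread between these libraries, which differ in condition.

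Barcodes with at least 500 genes and at most 10% mitochondrial UMIs were kept, which left 31156 of 41936 barcodes, and from 1182 to 17897 per library. Macrophages were barcodes with at least 10 UMIs of C1qa, C1qb and C1qc, the subunits of complement C1q, and numbered 456, 1772, 2071, 788 and 411. Neutrophils were barcodes with at least 10 UMIs of S100a8 and S100a9 and numbered 6, 39, 58, 17 and 7. Other Ptprc-positive barcodes (Ptprc encodes CD45) numbered 509, 3701, 2594, 188 and 196, and tumor barcodes, with Sox10 and without Ptprc, 263, 8818, 2874, 473 and 302, although the labels describe CD45+ sorted cells. Summed UMIs of the macrophages were between 5302518 and 18592030, and those of the neutrophils between 21180 and 221170. Both marker lists include the genes of the gates, so the marker sums were in part fixed by the gates. All 8 macrophage markers had UMIs in the macrophages of each library, but also in its other Ptprc-positive barcodes. They summed to between 15211 and 28352 CPM in macrophages and between 476 and 886 in the other Ptprc-positive barcodes. The neutrophil markers summed to between 33046 and 132814 CPM in the neutrophils of the other 4 libraries. In the 6 pretreatment barcodes of the neutrophil gate they summed to 6080, Ly6g was at 0, and T cell, B cell and monocyte markers reached 2205, 869 and 4249, so that these barcodes go against their name. A Sox10 UMI was found in 2.19%, 31.1%, 13.9%, 3.05% and 9.98% of the macrophages. At most 3.12% of the barcodes of the smaller library of a pair were shared with the other library.

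The 7 Clec4 genes lie within 368.0 kb of chromosome 6 (mm10, positions of GENCODE vM21 on GRCm38). In order along the chromosome they are Clec4a1 (chr6:122921848-122934619, plus strand), Clec4a3 (chr6:122952515-122969875, plus), Clec4b1 (chr6:123049962-123071555, plus), Clec4a2 (chr6:123106428-123143999, plus), Clec4n (chr6:123229843-123247021, plus), Clec4d (chr6:123262111-123275265, plus) and Clec4e (chr6:123281789-123289870, minus). Clec4d and Clec4e, the pair called higher in neutrophils than in macrophages, point towards each other across a gap of 6523 bases. Clec5a (chr6:40574894-40585821, minus) and Clec12a (chr6:129342691-129365303, plus) lie at a distance on either side. All are protein-coding genes. Clec4a1, Clec4a2, Clec4a3 and Clec4b1 are close paralogs, and reads that fit more than 1 of them are not counted by Cell Ranger, so the levels of these 4 are uncertain in absolute terms.

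The promoters of 2 macrophage genes and of the 2 neutrophil genes are shown because these pairs had opposite patterns over the populations. Each run is the RefSeq window (GRCm38.p6) from 250 bases before to 50 bases after the start of transcription, written in the direction of the gene. Capitals mark GAGGAA, a core that the myeloid factor PU.1 binds, or its reverse complement TTCCTC.
Clec4a1 (chr6:122921598-122921897, plus strand): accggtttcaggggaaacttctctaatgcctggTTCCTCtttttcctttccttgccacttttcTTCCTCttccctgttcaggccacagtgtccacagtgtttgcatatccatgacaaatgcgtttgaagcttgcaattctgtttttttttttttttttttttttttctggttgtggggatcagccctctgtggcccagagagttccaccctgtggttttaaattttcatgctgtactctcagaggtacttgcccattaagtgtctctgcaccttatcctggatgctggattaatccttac
Clec4b1 (chr6:123049712-123050011, plus strand): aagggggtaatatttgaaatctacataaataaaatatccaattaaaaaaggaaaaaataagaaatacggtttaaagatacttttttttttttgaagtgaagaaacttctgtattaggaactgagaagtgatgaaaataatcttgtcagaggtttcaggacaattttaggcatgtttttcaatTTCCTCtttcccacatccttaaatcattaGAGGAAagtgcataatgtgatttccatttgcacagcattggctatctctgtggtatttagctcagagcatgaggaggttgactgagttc
Clec4d (chr6:123261857-123262156, plus strand): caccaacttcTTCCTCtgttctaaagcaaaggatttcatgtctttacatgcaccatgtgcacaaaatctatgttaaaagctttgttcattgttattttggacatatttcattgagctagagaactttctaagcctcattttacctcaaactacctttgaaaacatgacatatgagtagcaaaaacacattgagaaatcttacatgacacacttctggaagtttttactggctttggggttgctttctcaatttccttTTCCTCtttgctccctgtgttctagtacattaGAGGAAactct
Clec4e (chr6:123289822-123290121, minus strand): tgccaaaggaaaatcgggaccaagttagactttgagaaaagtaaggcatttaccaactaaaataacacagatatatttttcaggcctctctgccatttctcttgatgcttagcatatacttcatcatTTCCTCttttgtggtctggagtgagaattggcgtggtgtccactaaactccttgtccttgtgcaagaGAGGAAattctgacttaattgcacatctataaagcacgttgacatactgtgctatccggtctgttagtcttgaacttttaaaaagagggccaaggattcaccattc

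All 4 windows hold the core at least 2 times, so it did not separate the pairs. The 8 members with a RefSeq entry have 9 windows, of which 7 hold it, compared with 28.3% of 32851 windows of the same length over all genes. The AP-1 motif TGANTCA, which is its own reverse complement, was found in Clec4a2 and Clec12a and in 7.81% of all windows. The C/EBP motif TTGCNNCAA and the NF-kB motif GGGANTTCC, searched on both strands, were found in no member and in 2.08% and 1.68% of all windows. A match is a description of the letters and does not show binding.

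Clec4a1 encodes a member of the dendritic cell immunoreceptor group and stood at 164, 97.5, 115, 266 and 193 CPM in macrophages. The neighbouring genes of the same group followed the same course, with Clec4a2, which carries an inhibitory motif, at 122, 73.2, 87.6, 181 and 130. Clec4a3 was at 136, 83.0, 94.5, 222 and 167. For each of the 3 genes, control day 7 was the lowest library and control day 21 the highest. Clec4b1, an activating receptor that pairs with FcRγ, was at 33.2, 20.6, 29.3, 92.4 and 52.5, with the same lowest and highest library. CPM values are compared across libraries and populations, not between genes, and in these sums fewer expressing cells and less RNA per cell cannot be told apart.

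In neutrophils, Clec4a1 had 0, 7, 5, 0 and 1 UMIs, and Clec4b1 had at most 1 UMI in each library. A count of 0 in the pretreatment neutrophils allows up to 3 UMIs, or 40.1 CPM, so low levels were not detectable at this depth. Of all Clec4a1 UMIs in kept barcodes, 96.1%, 76.7%, 89.9%, 98.1% and 97.4% were in macrophages.

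Clec4d and Clec4e had the reverse order. Clec4e encodes Mincle, an FcRγ-coupled receptor for mycobacterial glycolipids and for a ribonucleoprotein released by dying cells. In neutrophils, Clec4e was at 374, 533, 1103, 2130 and 1228 CPM, and in macrophages at 99.2, 63.0, 58.9, 44.9 and 62.8. The neutrophil value was above the macrophage value in all 5 libraries, among them pretreatment, whose barcodes of the neutrophil gate go against their name. Clec4d encodes MCL, the partner with which Mincle forms a heterodimer. It was at 147, 260, 764, 489 and 1086 in neutrophils and at 72.2, 39.4, 31.0, 28.9 and 30 in macrophages. The counting intervals of the populations were apart in 4 of 5 libraries. At pretreatment they overlapped, at 73.4 to 263 in neutrophils, from 11 UMIs, and 65.2 to 79.8 in macrophages. Macrophages, which outnumbered neutrophils, held 45.9%, 60.0%, 56.0%, 56.0% and 71.1% of the Clec4e UMIs in kept barcodes.

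Clec4n, an FcRγ-coupled receptor for fungal mannans, was at 111, 50.1, 30.7, 61.3 and 83.1 CPM in macrophages. Its neutrophil values were 26.7, 61.5, 45.2, 25.1 and 992, and overlapped those of the macrophages. The last of these rests on 21 UMIs, of which 19 came from 1 barcode. Clec5a, which pairs with DAP12, was at 47.7, 19.5, 25.6, 27.0 and 34.4 in macrophages and at 13.4, 6.83, 45.2, 25.1 and 472 in neutrophils. Of the 10 Clec5a UMIs behind the value 472, 9 came from 1 barcode. Clec12a, an inhibitory receptor for uric acid crystals, was at 163, 92.0, 122, 162 and 136 in macrophages and at 13.4, 34.2, 76.9, 12.5 and 94.4 in neutrophils.

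Tumor barcodes were close to 0 for every member. None of the 9 had a UMI in the 263 pretreatment tumor barcodes, and the highest tumor value of any member was 2.72 CPM, for Clec4e in the L-fuc day 21 library.

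**Figure D1:**
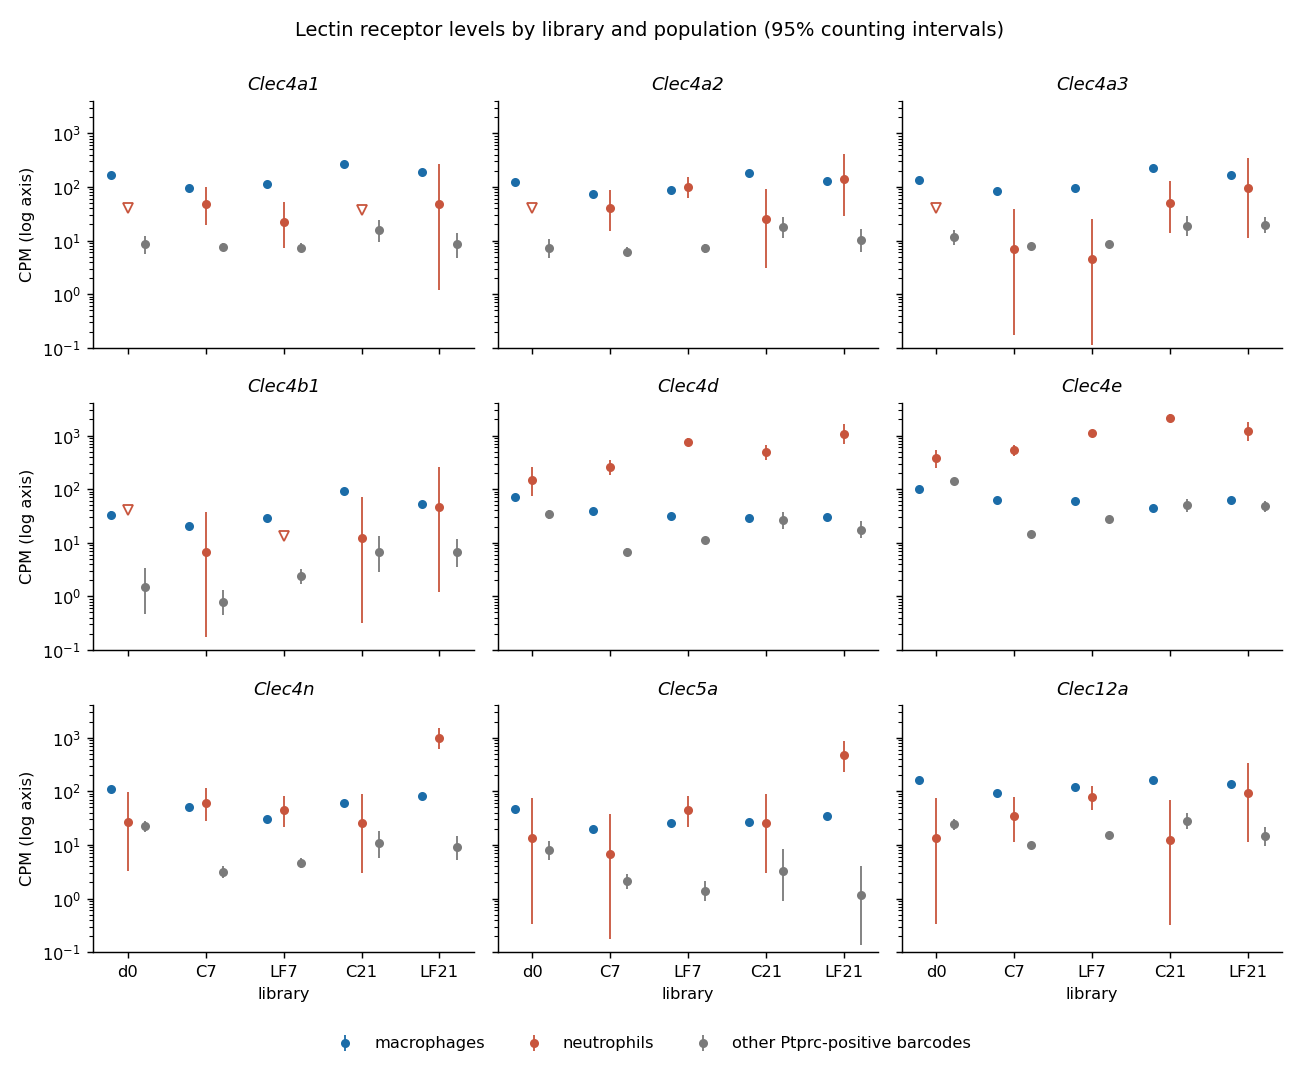
Level of each lectin receptor gene (CPM, log axis) in macrophages (blue), neutrophils (red) and other Ptprc-positive barcodes (grey) of the 5 libraries (d0 pretreatment, C control, LF L-fuc, with the day). Points are summed levels, bars exact Poisson 95% intervals and open triangles the limit of 3 UMIs where no UMI was found. For Clec4d and Clec4e the red points lie above the blue points in all 5 libraries, whereas for Clec4a1 the blue points lie between 97.5 and 266 and above the red points.

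The contrasts of the populations were tested with edgeR's quasi-likelihood test over 15 sums (3 populations in 5 libraries) with the library as a block, on 11478 genes and with Benjamini-Hochberg adjustment. A gene was called at an adjusted p of at most 0.05 and a fitted difference of at least 2-fold. Of the 9 members, 4 were higher in macrophages than in neutrophils, compared with 8.80% of all genes tested, and 2 were higher in neutrophils, compared with 3.80%. The median fitted log2 difference was 1.18 for the members and 0.40 for all genes.

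Clec4a3 was 9.82-fold higher in macrophages than in neutrophils (log2 3.30, SE 0.41, adjusted p = 3.76e-05, edgeR), although its neutrophil sums hold 8 UMIs. Clec4b1 was 8.47-fold higher (log2 3.08, SE 0.65, adjusted p = 0.00449), although its neutrophil sums rest on 3 UMIs. For Clec4a1 the fold was 7.41 (log2 2.89, SE 0.49, adjusted p = 0.000817) and for Clec12a 3.32 (log2 1.73, SE 0.41, adjusted p = 0.00949). Macrophage counting intervals lay above those of neutrophils in 4 of 5 libraries for Clec4a3, 3 for Clec4a1 and Clec12a and 2 for Clec4b1. At L-fuc day 21, Clec4b1 was at 52.5 CPM in macrophages and 47.2 in neutrophils. Without the 2 smallest neutrophil sums, those of pretreatment and L-fuc day 21, Clec12a was at log2 1.48 and was no longer called (adjusted p = 0.0606).

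In the other direction, Clec4e was 12.4-fold higher in neutrophils (log2 -3.63 for macrophages over neutrophils, SE 0.53, adjusted p = 0.000222, edgeR) and Clec4d 10.1-fold higher (log2 -3.34, SE 0.49, adjusted p = 0.000207). Clec4a2 (log2 1.18, adjusted p = 0.0938), Clec4n (log2 -0.37, adjusted p = 0.670) and Clec5a (log2 -0.52, adjusted p = 0.577) were not called, but Clec4a2 was called when L-fuc day 7 was left out (log2 2.16), with mixed barcodes left out (log2 1.55) and with no filter on low counts (log2 1.23). With a gate of 20 UMIs in place of 10, Clec4n turned to log2 1.53 (adjusted p = 0.0471). The neutrophil sums of Clec4n and Clec5a are those in which 1 barcode gave most UMIs.

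Against the other Ptprc-positive barcodes, 8 of the 9 members were higher in macrophages, compared with 9.45% of all genes. The fitted log2 differences of these 8 ran from 1.45 for Clec4d (SE 0.45, adjusted p = 0.0207, edgeR) to 4.32 for Clec4a1 (SE 0.35, adjusted p = 1.04e-07), and their median over the 9 members was 3.57, with -0.10 for all genes. The call of Clec4d was lost when control day 7 (log2 1.09, adjusted p = 0.132) or L-fuc day 21 (log2 1.59, adjusted p = 0.0707) was left out. Clec4e was not called (log2 0.73, SE 0.49, adjusted p = 0.283).

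Between neutrophils and the other Ptprc-positive barcodes, 5 of 9 members were higher in neutrophils, compared with 4.42% of all genes. These were Clec4d (log2 4.78), Clec4e (log2 4.35), Clec5a (log2 4.09), Clec4n (log2 3.53) and Clec4a2 (log2 2.72). The call of Clec4a2 was lost without L-fuc day 7 (log2 1.54, adjusted p = 0.154, edgeR). Clec4n was no longer called with a gate of 20 UMIs (log2 1.25, adjusted p = 0.231) or a minimum of 1000 genes (log2 3.32, adjusted p = 0.0680). Clec12a stood at log2 1.44 with an adjusted p of 0.0677 (edgeR) and was called when pretreatment (log2 1.78) or control day 21 (log2 1.82) was left out, with no filter on low counts (log2 1.46) and with DESeq2's own test (log2 1.32).

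Scaling by total UMIs in place of TMM moved the median of all genes from 0.40 to 0.19 in the first contrast and from -0.10 to -0.32 in the second, and the split of all calls from 1010 higher and 436 lower in macrophages to 631 and 568, and from 1085 and 1155 to 861 and 1636. The counts of members called, 6, 8 and 5, were the same under TMM, total UMIs and DESeq2's size factors.

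**Figure D2:**
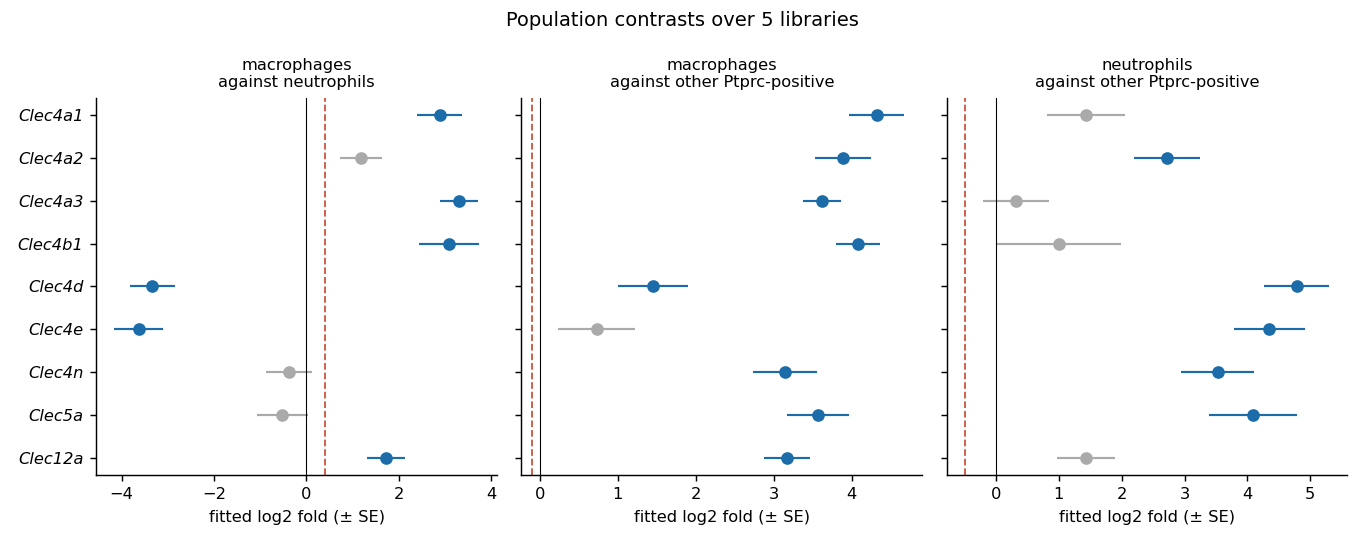
Fitted log2 differences (edgeR, ± SE) of the 9 genes between macrophages, neutrophils and other Ptprc-positive barcodes over 5 libraries. Blue points were called, grey points were not, and the dashed line is the median of all 11478 genes. Clec4d and Clec4e lie at -3.34 and -3.63 in the first panel, and Clec4a1 at 4.32 in the second.

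The Clec4e UMIs of the other Ptprc-positive barcodes were uneven among cell types. Barcodes there with at least 3 UMIs of the monocyte markers and of no other gate had 781, 158, 213, 136 and 346 CPM of Clec4e. The pretreatment value was above the 374 CPM of the neutrophil gate, and in the other libraries the monocyte value was below the neutrophil value. Barcodes of the T cell gate had 21.3, 14.4, 6.44, 0 and 0. Dendritic cells of the mregDC gate, which express maturation genes, had 0, 1.10, 1.09, 0 and 0. Monocyte barcodes thus exceeded T cell barcodes in all 5 libraries, although only 3 barcodes passed the monocyte gate in control day 21 and 5 in L-fuc day 21. The other Ptprc-positive value of Clec4e, at 141, 14.5, 27.3, 49.8 and 47.8, was highest at pretreatment. The monocyte gate held 4.91%, 1.30%, 2.89%, 1.60% and 2.55% of these barcodes, while their summed monocyte markers were at 589, 186, 597, 1491 and 1415 CPM.

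Detection per barcode was compared after thinning each barcode to 1000 UMIs. This left 451 of 456, 1770 of 1772, 2069 of 2071, 773 of 788 and 408 of 411 macrophages. Clec4a1 was then found in 16.4%, 9.27%, 10.9%, 21.3% and 16.9% of them, and before thinning in 50.7%, 38.7%, 39.9%, 60.4% and 60.1%. The T cell barcodes here were all other Ptprc-positive barcodes with at least 2 UMIs of Cd3d, Cd3e and Cd3g. Unlike those of the T cell gate above, they could pass another gate, so they need not all lack the gene. They numbered 326, 750, 1099, 52 and 26 after thinning. Clec4a1 was found in 0.307%, 0.667%, 0.819%, 1.92% and 0% of them, so its macrophage values were above this background. After thinning, Clec4e was found in 2.88%, 4.46%, 3.53%, 3.88% and 4.66% of macrophages. In these T cell barcodes Clec4e was found in 3.37%, 1.07%, 1.09%, 0% and 0%, so its pretreatment macrophage value was not above that of this mixed set. Before thinning, Clec4e was found in 17.8% of the pretreatment macrophages and in 5.81% of the pretreatment T cell barcodes. The median depth was between 5737 and 7887.5 UMIs in macrophages and between 3434 and 8370 in T cell barcodes.

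The genes of the downstream pathway were read in the same contrasts. Of 10 adaptors and kinases, Fcer1g (log2 1.52, adjusted p = 0.0142, edgeR) and Vav1, a guanine nucleotide exchange factor (log2 1.34, adjusted p = 0.0335), were higher in macrophages than in neutrophils. Hcst, which encodes the adaptor DAP10, was higher in neutrophils (log2 -1.37, adjusted p = 0.0175), and the other 7 were not called, Tyrobp among them at log2 0.04. Over all genes, 8.80% were called higher in macrophages and 3.80% higher in neutrophils. Against the other Ptprc-positive barcodes, 6 of the 10 were higher in macrophages and 4 in neutrophils, compared with 9.45% and 4.42% of all genes. Syk was at log2 1.25 in the first and 2.06 in the second of these contrasts, and Card9 at 2.06 and 2.51. The list's median was 0.05 between macrophages and neutrophils, below the 0.40 of all genes.

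Of the 4 inhibitory genes, none was called between macrophages and neutrophils (edgeR), and Ptpn6 was at log2 0.46 (adjusted p = 0.346) and Inpp5d, a lipid phosphatase, at 0.18 (adjusted p = 0.736). In the contrasts with the other Ptprc-positive barcodes, 2 of the 4 were higher in macrophages and 2 in neutrophils, beside 9.45% and 4.42% of all genes. In both contrasts these were Ptpn6 (log2 1.55 and 1.10, adjusted p = 0.000719 and 0.0451, edgeR) and Lyn (log2 2.35 and 1.51, adjusted p = 1.57e-05 and 0.00788). Of 10 cytokine and inflammasome genes, 4 were higher in neutrophils than in macrophages, compared with 3.80% of all genes. These were Il1b (log2 -1.48, adjusted p = 0.0495), Nlrp3, an inflammasome sensor (log2 -1.46, adjusted p = 0.0407), the chemokine gene Cxcl2 (log2 -2.40, adjusted p = 0.00504) and Il23a (log2 -6.13, adjusted p = 9.75e-05, edgeR). Tnf was not called (log2 0.39, adjusted p = 0.50, edgeR). Compared with the other Ptprc-positive barcodes, 7 of the 10 were higher in macrophages and 6 in neutrophils, beside 9.45% and 4.42% of all genes.

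Of the lectin receptors outside the set, 8 could be tested, with a median of 1.21 between macrophages and neutrophils, beside 0.40 for all genes. Among them, Mrc1, the macrophage mannose receptor (log2 2.63, adjusted p = 0.0399, edgeR), and Cd302 (log2 3.51, adjusted p = 0.000724) were higher in macrophages than in neutrophils. These 2 of 8 stand beside 8.80% of all genes. Against the other Ptprc-positive barcodes, Mrc1, Cd302 and Mgl2 were higher in macrophages, whereas Cd209a (log2 -1.78, adjusted p = 0.0215) and Ly75 (log2 -2.11, adjusted p = 0.000633, edgeR), both receptors of dendritic cells, were lower. Over all genes, 9.45% were called higher in macrophages in this contrast, and 1155 of 11478 lower. None of the 8 was called between neutrophils and the other Ptprc-positive barcodes, where 4.42% of all genes were higher in neutrophils and 329 of 11478 lower. Clec4a4, Clec4b2, Clec4f and Clec4g passed the filter on low counts in none of these contrasts.

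Within macrophages, the members were compared along Arg1, Cx3cr1 and the inflammatory genes Il1a, Cxcl1 and Tnf. The ratios were taken for the members only, so no share of all genes stands beside them. Arg1 encodes arginase, and barcodes with at least 3 Arg1 UMIs were 23.9%, 12.1%, 8.02%, 4.44% and 10.9% of the macrophages. Clec4d was at 140.0, 98.2, 71.7, 82.4 and 55.8 CPM in them and at 34.6, 25.9, 25.3, 23.3 and 22.3 in the other macrophages. The Arg1 value was higher in all 5 libraries, with a median log2 ratio of 1.84 (range 1.33 to 2.01). Clec4e was also higher in all 5, by a median of 1.31 (0.27 to 2.57), and its lowest ratio was that of L-fuc day 21.

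Clec4b1 had the reverse pattern, at 5.28, 7.76, 11.4, 36.5 and 13.9 in Arg1 barcodes and at 48.7, 23.6, 31.8, 98.4 and 64.1 in the others, with a median log2 ratio of -1.54. Clec4a1 (-0.76), Clec4a2 (-0.76), Clec4a3 (-0.95) and Clec12a (-0.57) were likewise lower in the Arg1 barcodes of all 5 libraries. Clec4n was higher in 4 of 5 (median 0.50), and Clec5a had a median of -0.02.

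Barcodes with at least 3 UMIs of Il1a, Cxcl1 and Tnf had 173, 141, 140, 77.8 and 95.6 CPM of Clec4e, and the other macrophages 11.9, 17.7, 16.3, 7.75 and 13.0. The median log2 ratio was 3.09 (2.84 to 3.82). Clec4d followed with 1.57 (1.15 to 1.72), and the medians of the other 7 members were between -0.45 and 0.29.

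Cx3cr1 encodes the receptor for fractalkine. In barcodes with a Cx3cr1 UMI, Clec5a was at 56.1, 24.2, 36.6, 33.3 and 39.7, and in those without at 31.0, 12.9, 12, 8.66 and 11.8, with a median log2 ratio of 1.59. Clec12a (1.18), Clec4a3 (1.10), Clec4a1 (0.88), Clec4n (0.69) and Clec4a2 (0.61) were higher in all 5 libraries, and Clec4b1 in 4 of 5 (0.48). Clec4d (-0.88) and Clec4e (-0.72) were lower in all 5. Barcodes past each of these gates had more UMIs, for example a median of 17750 against 4249 for the inflammatory gate at pretreatment, and the part of depth in the ratios was not tested.

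**Figure D3:**
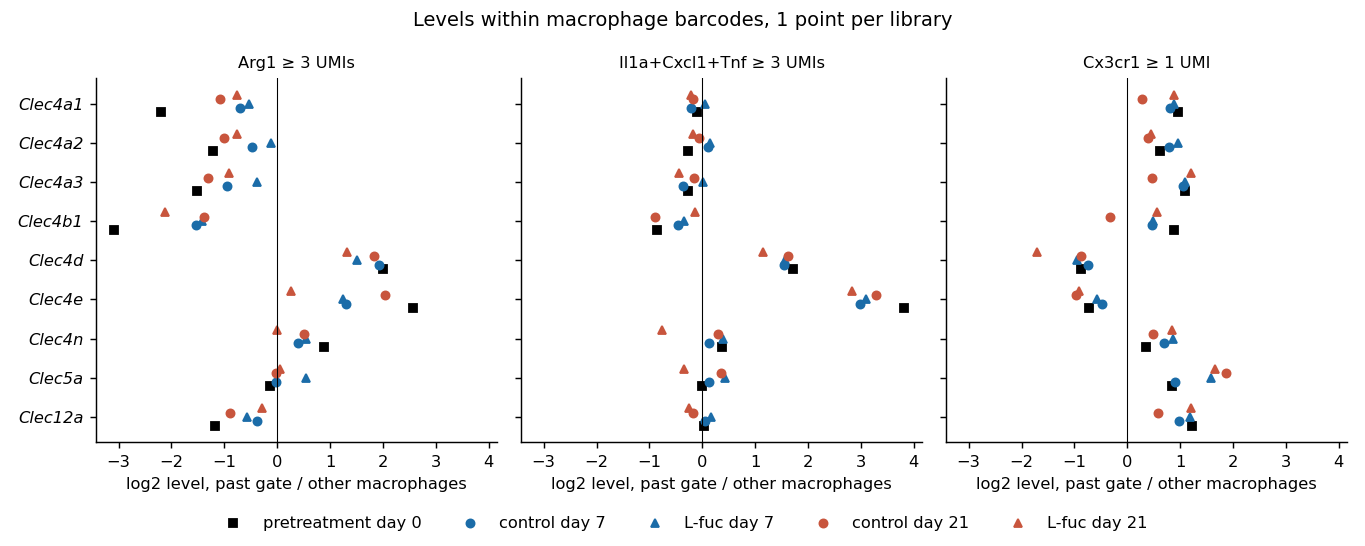
Level of each gene in macrophage barcodes past a gate over its level in the other macrophages (log2 ratio, horizontal axis), 1 point per library. Squares are pretreatment, circles control and triangles L-fuc, with day 7 in blue and day 21 in red. Clec4d and Clec4e lie right of 0 in the Arg1 and inflammatory panels and left of 0 in the Cx3cr1 panel in all 5 libraries.

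The genes most like each member were found by Pearson's r of log2 levels over the 15 sums, among 11330 genes, as a description, since sums of 1 library share its depth. Clec4d and Clec4e had an r of 0.97 with each other. The nearest to Clec4e were Arg2, Ptafr and Acod1 (0.98 each), and to Clec4d Tnfaip2 (0.99), Ptafr and Trem1 (0.98 each). For Clec4a1 they were Il18bp, Cx3cr1 (0.96 each) and Vcam1 (0.95), and for Clec4a3 they were Clec4b1 (0.96), Itm2b (0.95) and Man2b1 (0.93). Clec4n and Clec5a had an r of 0.93, and both had their highest value in the L-fuc day 21 neutrophil sum, where 1 barcode gave most of their UMIs. Clec12a was nearest to Vcam1 (0.94), Clec4a1 and Arl11 (0.93 each).

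Turning to time in control tumors, all 9 members were lower in macrophages of control day 7 than of pretreatment. Their log2 ratios were between -1.29 for Clec5a (-1.54 to -1.04) and -0.66 for Clec4e (-0.81 to -0.50). Clec5a and Clec4n (-1.15, -1.32 to -0.99) were past 2-fold, compared with 4.03% of all genes. The median was -0.75 for the members and 0.37 for all genes, whose lowest decile was at -0.53. The counting intervals of all 9 members were below 0, but the share of all genes with such an interval is not given here. Between these libraries the summed tumor markers of the macrophages moved from 6.98 to 153 CPM and the share with a Sox10 UMI from 2.19% to 31.1%. Red cell markers moved from 0 to 706 CPM, NK cell markers from 9.05 to 123, monocyte markers from 427 to 106 and T cell markers from 340 to 271. The Arg1 barcodes went from 23.9% to 12.1% of the macrophages, and the part of these in the ratios was not tested. The number past 2-fold was 0 with mixed barcodes left out and 6 with TMM scaling or with a gate of 5 UMIs.

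From control day 7 to control day 21, 4 members were past 2-fold higher in macrophages, compared with 5.13% of all genes. These were Clec4b1 (log2 2.16, 1.97 to 2.37), Clec4a1 (1.45, 1.35 to 1.55), Clec4a3 (1.42, 1.31 to 1.53) and Clec4a2 (1.31, 1.19 to 1.42), the 4 neighbours at one end of the cluster. Clec12a was 0.82 higher (0.71 to 0.93), while Clec4d and Clec4e were lower, by -0.44 (-0.68 to -0.22) and -0.48 (-0.67 to -0.31). The all-gene median was -0.23. The control day 7 library is shared with the preceding comparison, so the opposite signs of the 2 comparisons are not independent. The tumor markers of the macrophages were at 20.8 at day 21, and with mixed barcodes left out 2 members were past 2-fold. From day 7 to day 21, T cell markers moved from 271 to 53.0 CPM, NK cell markers from 123 to 19.6, monocyte markers from 106 to 72.6 and red cell markers from 706 to 466. The Arg1 barcodes went from 12.1% to 4.44%, and the part of these in the ratios was not tested.

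The L-fuc libraries were then set against the control libraries of the same day. At day 7 no member was past 2-fold in macrophages, compared with 4.44% of all genes higher and 5.73% lower. The counting interval of the log2 ratio was above 0 for 6 members, compared with 12.8% of all genes, and below 0 for 2, compared with 32.0%. The members' median was 0.24, and that of all genes was -0.14. Clec4b1 was higher by 0.51 (0.30 to 0.72), Clec12a by 0.40 (0.30 to 0.50) and Clec5a by 0.39 (0.17 to 0.61). Clec4a1 (0.24), Clec4a2 (0.26) and Clec4a3 (0.19) were higher by less. Clec4n was lower, at -0.70 (-0.87 to -0.54), as was Clec4d at -0.35 (-0.52 to -0.18), and the interval of Clec4e spanned 0 (-0.10, -0.23 to 0.03). The red cell markers of these macrophages were at 706 CPM without and 3895 CPM with L-fuc, and the Arg1 barcodes at 12.1% and 8.02%. NK cell markers were at 123 and 584, T cell markers at 271 and 491, monocyte markers at 106 and 235 and tumor markers at 153 and 91.5. A Sox10 UMI was in 31.1% and 13.9% of the macrophages. The part of these in the ratios was not tested.

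At day 21 again no member was past 2-fold in macrophages, with 5.98% of all genes past it higher and 1.79% lower. Here 5 intervals were below 0, compared with 13.3% of all genes, and 3 above 0, compared with 13.7%. The members' median was -0.26 and that of all genes 0.03. Clec4b1 was lower in the L-fuc library by -0.81 (-1.01 to -0.63), followed by Clec4a2 (-0.48), Clec4a1 (-0.46), Clec4a3 (-0.41) and Clec12a (-0.26). Clec4e was higher by 0.48 (0.27 to 0.70), Clec4n by 0.44 (0.26 to 0.62) and Clec5a by 0.35 (0.07 to 0.63). The interval of Clec4d spanned 0 (0.05, -0.24 to 0.34). The Arg1 share was 4.44% without and 10.9% with L-fuc, and the red cell markers were at 466 and 5.65. Monocyte markers were at 72.6 and 317, tumor markers at 20.8 and 29.7, and the share with a Sox10 UMI was 3.05% and 9.98%. The part of these was not tested. Over the 15 library alternatives, the sign of every ratio of a member whose interval excluded 0 in these comparisons held, except for Clec4a3 at day 7, which was -0.05 after thinning.

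**Figure D4:**
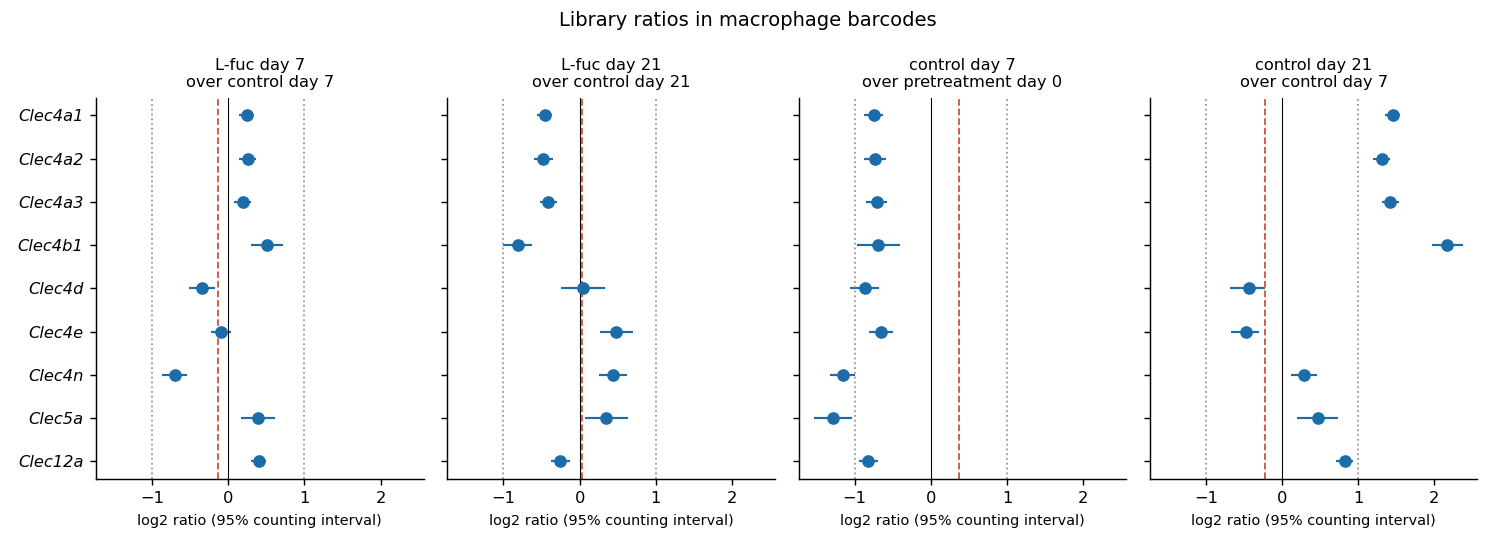
Log2 ratio of each gene in macrophages between pairs of libraries, with exact conditional 95% counting intervals. The dashed line is the median of all genes and the dotted lines mark 2-fold. Clec4a1, Clec4a2, Clec4a3 and Clec4b1 lie between 0.19 and 0.51 for L-fuc over control at day 7 and between -0.81 and -0.41 at day 21.

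The pathway genes were compared between the same libraries. At day 7 none of the 10 adaptors and kinases was past 2-fold between the L-fuc and control macrophages. Fcer1g was at log2 0.13 and Tyrobp at 0.23, and at day 21 they were at -0.56 and -0.27. Of 10 other lectin receptors with enough UMIs, 1 was past 2-fold higher at day 7, compared with 4.44% of all genes. At day 21, 2 were past it, compared with 5.98%, and on neither day was any past 2-fold lower. The day 7 gene was Clec9a, at 1.28 (0.74 to 1.92). Mgl2, a receptor for galactose-type sugars, was at -0.71 (-1.10 to -0.33) at day 7. It was 1 of the 2 at day 21, at 2.04 (1.71 to 2.40).

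In neutrophils, 7 members had enough UMIs for a ratio at day 7. Of these, 4 were past 2-fold higher in the L-fuc library, compared with 9.37% of all genes, and 1 lower, compared with 20.8%. Clec4d, with 169 UMIs in the L-fuc and 38 in the control library, was higher by 1.53 (1.04 to 2.10), and Clec4e, with 244 and 78 UMIs, by 1.04 (0.68 to 1.44). The intervals of Clec4a2 (1.12), Clec5a (1.86, with 10 and 1 UMIs) and Clec4a1 (-1.01) spanned 0. The neutrophil markers of these sums were at 52240 in the L-fuc and 33046 in the control library. In the same order, red cell markers were at 18890 and 3076 CPM, NK cell markers at 1221 and 103, monocyte markers at 832 and 383 and tumor markers at 40.7 and 314, and their part was not tested. With a gate of 5 or 20 UMIs in place of 10, the number of members past 2-fold was 1 and 2.

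At day 21 the neutrophil sums held 7 and 17 barcodes, and 4 members could be compared. Clec4d was higher by 1.18 (0.34 to 1.93) in the L-fuc library and Clec4e lower, at -0.75 (-1.45 to -0.19). Clec4n (4.79) and Clec5a (3.79) were the members in which 1 barcode gave most UMIs. These 3 of 4 past 2-fold higher stand beside 15.3% of all genes, and no member was past 2-fold lower, with 27.1% of all genes.

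In the other Ptprc-positive barcodes, Clec4b1 was past 2-fold higher in the L-fuc library at day 7 (1.54, 0.71 to 2.57, from 39 and 15 UMIs), compared with 10.9% of all genes higher and 8.54% lower. Clec4e (0.91), Clec4d (0.71), Clec12a (0.60) and Clec4n (0.56) had intervals above 0, but no all-gene share of such intervals is given here. The mix of cells differed as well. Without and with L-fuc, monocyte markers were at 186 and 597 CPM and NK cell markers at 277 and 2073. T cell markers were at 363 and 1181 and tumor markers at 398 and 206. Barcodes past none of the cell type gates made up 61.1% and 24.8% of this population. The part of these shifts in the ratios was not tested. With barcodes that held a Sox10 UMI left out, Clec4d, Clec4n and Clec12a were at -0.02, -0.14 and -0.05. At day 21 none of the 8 members with enough UMIs was past 2-fold, with 3.72% of all genes higher and 13.4% lower. Clec12a alone had an interval below 0 (-0.92, -1.73 to -0.15). On that day T cell markers were at 1300 CPM without and 476 with L-fuc, and monocyte markers at 1491 and 1415. Their part was not tested.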

How the data were processed

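The 5 gene expression libraries were used, and the T cell receptor libraries were not used here. Per the labels, the authors aligned the reads to mm10 with Cell Ranger (3.0 in the processing notes, 7.1.0 in the matrix headers) and deposited raw UMI counts per gene and barcode. The members, lists, gates and tests were chosen with earlier results of these data known. Named genes are the 9 members, genes of the lists of lectin receptors, adaptors, inhibitory genes and cytokines, and the 3 genes most like each member. Some list genes were picked for naming after their values were seen.

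Counts were summed per library and population and scaled to a total of 1000000 UMIs per sum (CPM). Barcodes past both gates were counted as macrophages. No doublet caller was run, and barcodes mixed between cell types were left out as an alternative. Populations were compared with edgeR 4.0.16 (TMM, filterByExpr, glmQLFit, library block) in R 4.3.3, and DESeq2 1.42.0 was an alternative. The block pairs the sums because the 3 populations of a library come from 1 pool of cells. The step was tested on simulated data without a library effect. Only genes with more neutrophil UMIs than Clec4a1, Clec4a3, Clec4b1 and Clec12a were changed there, so it does not bear on those calls. Log2 ratios of libraries added 1 UMI to each count, used genes with 10 or more UMIs summed over the pair and have exact Poisson or conditional 95% intervals. The floor of a count of 0 was 3 UMIs. Gene positions are of GENCODE vM21. Other steps used scipy 1.17.1, numpy 2.4.6 and pandas 2.3.3 in Python 3.11.15.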

Additional observations from a re-analysis of the deposited data

Results flagged for a closer look

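In macrophages, 6 members had L-fuc to control ratios of opposite sign at day 7 and day 21, with both intervals excluding 0. Clec4d and Clec4e also changed sign, but their intervals spanned 0 at day 21 and at day 7, in that order. The share of all genes with such a change is not given here. With 1 library on each side the difference was not tested. Clec4b1 went from 0.51 to -0.81 on the log2 scale, a difference of -1.32. Clec4a2 went from 0.26 to -0.48 (-0.74), Clec4a1 from 0.24 to -0.46 (-0.70), Clec12a from 0.40 to -0.26 (-0.66) and Clec4a3 from 0.19 to -0.41 (-0.60). Clec4n had the reverse order, from -0.70 to 0.44, a difference of 1.14.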

How the results depend on the processing

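The number of members called in the population contrasts (6, 8 and 5) stayed within 1.5 times under every alternative, at 6 to 7, 7 to 8 and 4 to 6 with 1 library left out. The fit without the replicate block, in which the library does not pair the populations, gave 6, 7 and 5, and Clec4d was no longer called between macrophages and other Ptprc-positive barcodes (log2 1.31, adjusted p = 0.119, edgeR). For macrophages over neutrophils, Clec4n turned to 1.53 with a gate of 20 UMIs. The alternatives that left out barcodes with tumor marker UMIs or the 2 smallest neutrophil sums were chosen after seeing the data. Between libraries, where no call was tested, 932 of 1080 values of single genes lay within the counting interval of the ratio under the main setting.

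The count past 2-fold moved as follows. In macrophages it became 1 after thinning at L-fuc day 7 (0 in the report), 6 with TMM, 6 with a gate of 5, 1 as a mean over barcodes, 0 without mixed barcodes and 1 without tumor marker UMIs for control day 7 over pretreatment (2), and 2 without mixed barcodes for control day 21 over day 7 (4). In neutrophils at day 7 (5) it became 2 with a minimum of 30 UMIs, 1 after thinning, 1 and 2 with gates of 5 and 20, 2 with at least 1000 genes, 3 without mixed barcodes and 1 without tumor marker UMIs, and at day 21 (3) 1 with 30 UMIs, 8 with 1 UMI, 0 after thinning and 1 with a gate of 20. In other Ptprc-positive barcodes at day 7 (1) it became 0 with a pseudocount of 5 CPM, 3 after thinning and 2 with TMM, gates of 5 or 20, or without mixed or tumor marker barcodes, and at day 21 (0) 1 with a minimum of 1 UMI, a mean over barcodes, a gate of 20, at least 200 genes or up to 20% mitochondrial UMIs, 3 with at least 1000 genes, and 2 without mixed or tumor marker barcodes. Of the 46 ratios of members between libraries whose interval excluded 0, 5 turned sign under an alternative. These were Clec4a3 in macrophages at day 7 after thinning (-0.05), Clec4n over time in control macrophages without mixed barcodes (-0.06), and Clec4d (-0.02), Clec4n (-0.14) and Clec12a (-0.05) in other Ptprc-positive barcodes at day 7 without Sox10 UMIs, which in these barcodes is both the mixed and the tumor marker alternative. Of the 26 whose interval spanned 0, 15 turned. The cause was not tested.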
